A study of Mus musculus with 8 samples.

Results

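Smad6, Smad7, Pmepa1, Ldlrad4, Smurf1, Smurf2 and Bambi encode proteins that hold back signalling through SMAD transcription factors. Their Smad4 peaks were described in mouse CD4+ T cells. These 7 genes were chosen by name from 21779 protein-coding genes, and every called peak that met the RefSeq gene body or the 10 kb on either side of it (the territory of the gene) was taken. The Smad4 knockout (KO) libraries, KO 1 and KO 2, came from cells of CD4cre;Smad4fl/fl mice, in which a Cre recombinase driven by Cd4 regulatory sequence acts on a floxed Smad4 allele in T cells. The wild-type (WT) libraries, WT 1 and WT 2, came from WT mice. All mice were C57BL/6, and their CD4+ cells, taken from spleen and lymph nodes, were activated in culture. Interleukin 6 and a TGF-β receptor inhibitor were present for 12 h in every group. The age of the animals is not given in the sources used here. KO 1 was a pool of males and females, KO 2 was male and both WT samples were female, so that sex and genotype cannot be told apart. Nothing in the labels says that replicates were separate animals, and differences between groups describe these 4 libraries only.

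In TGF-β and BMP signalling, ligand-bound receptor kinases phosphorylate receptor-regulated SMADs, which join Smad4, enter the nucleus and bind DNA. Several of their target genes encode inhibitors of the same route, which closes a negative feedback loop. Smad6 and Smad7 are inhibitory SMADs that compete at the receptors, Smurf1 and Smurf2 are ubiquitin ligases that inhibitory SMADs bring to receptors, Pmepa1 and Ldlrad4 are related membrane proteins that keep receptor-regulated SMADs from the receptor, and Bambi is a receptor-like protein without a kinase domain.

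All 7 genes held a WT-only region, which is a stretch where peaks of both WT libraries met by at least 1 bp and no KO peak lay. Among all 21779 protein-coding genes 44.3% did. With these genes in 10 groups by territory length, the share was 44.9% in the group of Bambi, 54.7% in that of Smad7, 55.2% in that of Pmepa1, 58.6% in that of Smad6, Smurf1 and Smurf2 and 48.1% in that of Ldlrad4, the longest genes. The territories together held 2 KO 1 peaks and 1 KO 2 peak, against 44 WT 1 peaks and 34 WT 2 peaks. Peaks in a KO library lay at Smad7 and Ldlrad4, that is at 2 of the 7 genes, against 2.42% of all protein-coding genes. Smad7 was the only member with peaks in both KO libraries, a pattern found at 0.615% of all protein-coding genes. The WT peaks joined into 30 reproducible regions, meaning regions with a peak of each WT library, of which 28 were WT-only. Over the whole genome, 15882 of 16501 reproducible regions were WT-only, so a lack of KO peaks was the usual state. The number of WT-only regions was 11 at Ldlrad4, 6 at Smad7, 5 at Pmepa1, 3 at Smad6 and 1 each at Smurf1, Smurf2 and Bambi. These numbers rest on peaks of both WT libraries: with WT 2 left out, Smad7 had 12 and Smurf1 had 3, and with WT 1 left out, Smurf1 had 2. Within 1 kb of a gene end alone, Smad7 had 0. At least 11 such regions were held by 0.303% of all protein-coding genes, at least 6 by 1.39%, at least 5 by 2.29% and at least 3 by 8.32%. These counts describe genes taken by name and were not tested against other genes. The members had a median territory of 89.0 kb, against 37.2 kb over all protein-coding genes.

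**Figure D1:**
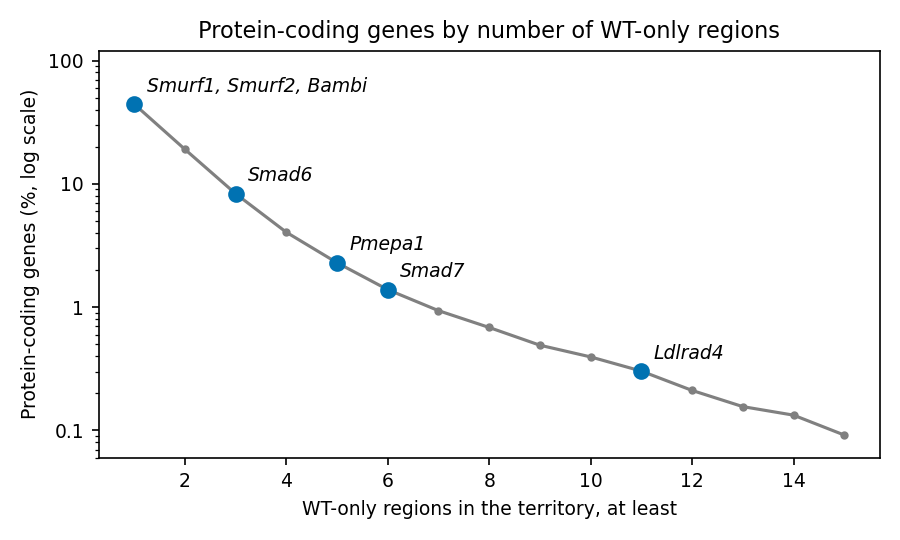
Percentage of the 21779 protein-coding genes (vertical axis, log scale) with at least the given number of WT-only regions in the territory (horizontal axis), with the 7 genes marked. Ldlrad4, with 11 WT-only regions, and Smad7, with 6, lie where 0.303% and 1.39% of genes have at least as many. Smurf1, Smurf2 and Bambi, with 1 each, lie where 44.3% of genes have at least as many.

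Across the whole lists the KO libraries had 564 and 424 peaks, against 27120 and 19792 in the WT libraries. The lists carry positions without heights or scores and the read depth is unknown, so the part of depth in the number of peaks was not tested. The narrowest width a peak could have was 254 and 234 bp in the KO lists and 240 and 242 bp in the WT lists. The labelled cell type was set beside marker genes. All 8 T cell genes, Cd4 and Cd3e among them, held a WT-only region, against 44.3% of all protein-coding genes. Of these, Cd3d and Cd3g had the same widest region. A WT-only region was also held by 2 of 6 B cell genes (Cd79a and Pax5) and 1 of 6 myeloid genes (Fcgr1). The same held for 1 of 5 cytotoxic T and NK genes (Klrb1c) and none of 3 erythroid genes. The territory of Klrb1c held 0 WT 1 peaks and 1 WT 2 peak, so the WT 1 part of its region lay outside. Cd79a held 5 WT-only regions, more than Cd4 with 2 or Cd3e with 3. A peak is not a level of RNA, and Cd8a held none. The territory of Smad4 itself held 1 and 0 KO peaks, against 5 and 3 WT peaks, positions that do not tell whether the allele was deleted.

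Because a long gene can hold more peaks, the members were ordered by the share of the territory that peaks covered. At Smad7 the covered share was 1.61% for KO 1 and 1.10% for KO 2, against 30.3% and 28.9% in WT 1 and WT 2. Pmepa1 had no covered base in either KO library, against 11.6% and 8.77% in the WT libraries. Both genes stood apart from the other members, since their WT values did not overlap those of any other gene of the group. At Smad6 nothing was covered in KO, against 3.83% and 3.48% in WT. Bambi likewise had nothing covered in KO, against 4.09% and 2.70% in WT. Ldlrad4 had 0.0729% covered in KO 1 and nothing in KO 2, against 3.56% and 2.47% in WT. These last 3 genes overlapped one another in the WT libraries, so that their order is not resolved. For Smurf1 the KO libraries covered nothing, against 1.95% and 0.856% in WT, and for Smurf2 nothing, against 1.20% and 0.822%. The Smurf genes overlapped each other and lay below the other 5 genes in both WT libraries.

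**Figure D2:**
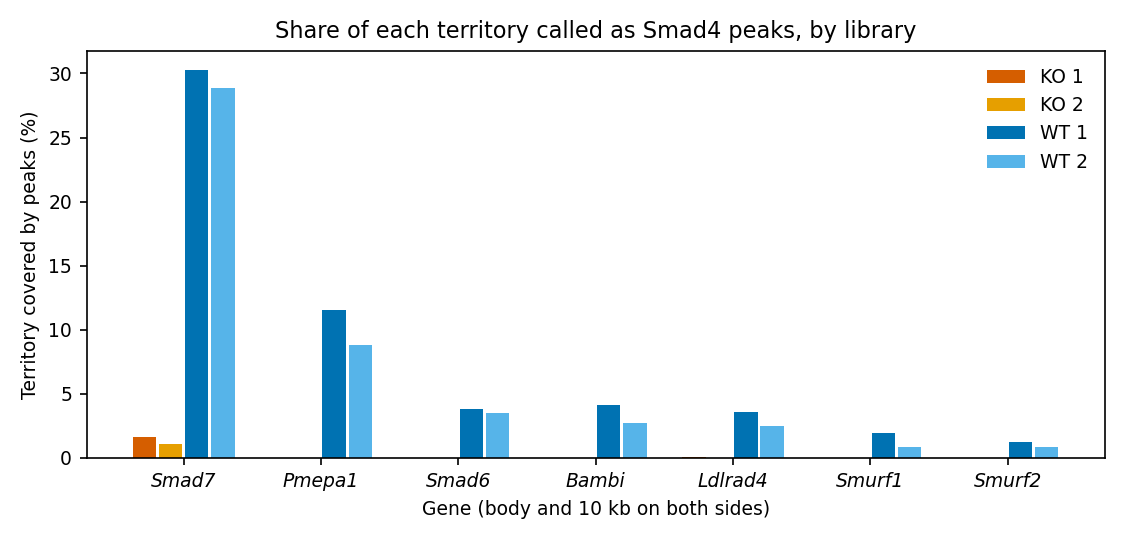
Share of each gene's territory (gene body and 10 kb on both sides) covered by called Smad4 peaks, in percent, with a bar for each KO and WT library. Smad7 reaches 30.3% and 28.9% in the WT libraries and stays at 1.61% and 1.10% in the KO libraries, and the Smurf genes stay below 2% in all 4 libraries.

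Over all 21779 genes ordered by the same WT share, Smad7 ranked 4 and Pmepa1 ranked 346. Smad6, Bambi and Ldlrad4 ranked 2580, 2868 and 3343, and Smurf1 and Smurf2 ranked 6902 and 8240. The median covered share was 3.40% over the members and 0.378% over all protein-coding genes, or 2.15% over those with a WT-only region. In every member the KO values were both below the WT values, which held for 46.1% of all protein-coding genes. The exact permutation test of the covered length gave a 2-sided p = 0.333 for each member, the smallest value that 2 against 2 libraries allow.

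Smad7 (gene ID 17131) occupies chromosome 18, 75367365 to 75395935 on mm10. Its territory held 1 peak for each KO library, against 13 for WT 1 and 8 for WT 2. The covered length averaged 660 ± 175 bp in KO and 14363 ± 474 bp in WT (SD, n = 2 each), so that KO peaks covered 4.60% of the WT length. The libraries of a genotype differed far less from each other than the genotypes did.

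The widest of its 7 reproducible regions (75366053 to 75372921, 6869 bp) began 1312 bp below the lower-coordinate end of the gene and ran 5556 bp past that end. In WT 1 it held a peak of 5792 bp and another of 442 bp, and in WT 2 a single peak of 6834 bp. By summed peak width it ranked 2 among the 16501 reproducible WT regions of the genome. The 6834 bp peak was the widest of all WT 2 peaks, and the 5792 bp peak ranked 4 in WT 1. This was also the only region of the 7 genes called in all 4 libraries. Such a region lay in the territory of 0.565% of all protein-coding genes.

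The KO peaks in it were far narrower than the WT peaks and sat at one end of them. KO 1 had a peak of 784 bp (75366692 to 75367475) and KO 2 a peak of 536 bp (75366807 to 75367342). The first spanned the lower-coordinate end of the gene and the second stopped 23 bp short of it. All 536 bp of the KO 2 peak lay inside the KO 1 peak, and their centres were 9 bp apart. Both lay wholly inside the wide peak of each WT library. Their centres fell 281.5 and 290.5 bp below the gene end, whereas the wide WT peaks had their centres 2112 to 2395 bp higher. The KO peaks took 11.4% and 7.80% of the region's width. Within their own lists they ranked 5 of 564 and 14 of 424 by width. The body of the lncRNA gene Gm20544 (75358639 to 75367088) ends within both KO peaks, so this stretch belongs to the ends of both genes.

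The other 6 regions of Smad7 were WT-only. A region of 1406 bp lay outside the gene, with its centre 3.69 kb below the lower-coordinate end and on the body of Gm20544; its peaks were 1236 bp wide in WT 1 and 736 bp in WT 2. The remaining 5 lay inside the gene. The widest of these (75376914 to 75379215) was 2302 bp, with peaks of 2246 and 2302 bp, so that 97.6% of it was called in both WT libraries. Its centre stood 10.7 kb inside the gene, and 1.27% of all reproducible regions were at least as wide in summed peak width. Next to it lay regions of 954 bp (75373610 to 75374563) and 1226 bp (75375510 to 75376735). The regions nearest the higher-coordinate end were 938 bp (75387134 to 75388071) and 902 bp (75392215 to 75393116) wide.

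**Figure D3:**
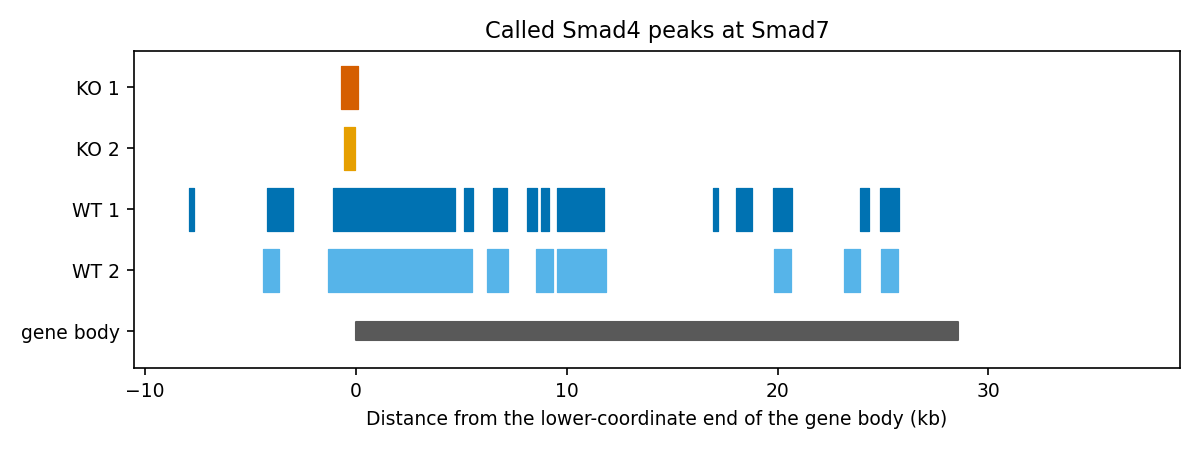
Called peaks of each library along the territory of Smad7, in kb from the lower-coordinate end of the gene body, with the KO libraries in the upper rows, the WT libraries under them and the gene body as a grey bar. Each KO library has a single peak near 0 kb, of 784 and 536 bp, inside the WT peaks of 5792 and 6834 bp, and the WT peaks run on through the gene.

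Smad6 (gene ID 17130), the other inhibitory SMAD gene, occupies chromosome 9, 63953076 to 64022085. No KO library had a peak in its territory, against 3 WT 1 peaks and 4 WT 2 peaks, all of which had a partner in the other WT library. The covered length was 0 bp in both KO libraries and 3252 ± 221 bp in WT (SD, n = 2). Most of it belonged to a region of 2868 bp over the higher-coordinate end (64020481 to 64023348), with a summed peak width of 2632 bp in WT 1 and 2474 bp, from 2 peaks, in WT 2. Of all reproducible regions 0.861% were at least as wide. The other regions lay inside the gene and were 242 bp (63956205 to 63956446) and 541 bp (63989213 to 63989753) wide. In the first of these both WT peaks stood at the minimum width of their list. Smad6 and Smad7 were among the 5 of 7 members whose widest region lay over an end of the gene. Only at Smad7 did a KO peak lie there. How often the widest region lies over an end among all protein-coding genes was not analysed here.

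Pmepa1 (gene ID 65112; chromosome 2, 173224458 to 173276731) had no KO peak and 6 peaks in each WT library. Its covered length was 0 bp in KO and 7348 ± 1426 bp in WT (SD, n = 2). The widest region (173273631 to 173277172, 3542 bp) lay over the higher-coordinate end of the gene. It held a peak of 3542 bp in WT 1 and peaks of 2442 and 424 bp in WT 2. It ranked 48 of 16501 by summed peak width, the highest rank of the WT-only regions of the group. A region of 1964 bp lay inside the gene (173262922 to 173264885), where the peaks differed most in length, 1964 bp in WT 1 against 960 bp in WT 2. Closer agreement was seen in a region of 1490 bp outside the lower-coordinate end (173218263 to 173219752), with peaks of 1408 and 1490 bp. That region also met the end of the neighbouring gene Zbp1 (173206612 to 173218959), which encodes a nucleic acid sensor, and cannot be given to either gene from its position. Narrower regions of 750 bp (173229423 to 173230172) and 488 bp (173279221 to 173279708) completed the locus.

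Ldlrad4 (gene ID 52662; chromosome 18, 67932274 to 68260550) is the longest member, with a body of 328 kb. KO 1 had a single peak there and KO 2 had none, against 17 WT 1 peaks and 12 WT 2 peaks. The covered length averaged 127 ± 180 bp in KO and 10506 ± 2681 bp in WT (SD, n = 2 each). All 12 peaks of WT 2 had a partner in WT 1. The 12 reproducible regions were spread along the gene, with centres between 0.259 kb below the lower-coordinate end and 312 kb inside the gene.

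The widest by summed peak width (67932576 to 67934358, 1783 bp) began 302 bp inside the gene, its peaks being 1780 bp wide in WT 1 and 1754 bp in WT 2. A narrow region of 727 bp (67931652 to 67932378) spanned the lower-coordinate end itself. Its WT 2 peak of 242 bp, the minimum of the list, crossed that end. Its WT 1 peak of 610 bp stopped short of it, at 67932261. Only 17.2% of that region was called in both WT libraries, the lowest share among the 30 regions. Far inside the gene, a region of 1513 bp (68226341 to 68227853) had peaks of 1488 and 1476 bp and was called in both WT libraries over 95.9% of its width. Another of 1470 bp lay at 68058470 to 68059939, with peaks of 1470 and 1006 bp. The KO 1 peak (68189945 to 68190198) was 254 bp wide, the minimum of its list. It lay inside WT peaks of 800 and 674 bp, with its centre within 64 bp of theirs. Unlike the KO peaks of Smad7, it had no counterpart in the other KO library.

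Smurf1 (gene ID 75788; chromosome 5, 144876495 to 144965899) had no KO peak, against 3 WT 1 peaks and 2 WT 2 peaks. Its single reproducible region (144965433 to 144966600, 1168 bp) lay over the higher-coordinate end, with peaks of 1168 and 694 bp. The covered length was 0 bp in KO and 1533 ± 844 bp in WT (SD, n = 2), the largest spread relative to its mean among the WT values of the members. Beside the unequal widths in this region, there were peaks found in only one WT library, of 722 and 240 bp in WT 1 and of 242 bp in WT 2. The 722 bp peak lay 781 bp from the nearest WT 2 peak.

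Smurf2 (gene ID 66313; chromosome 11, 106820061 to 106920747) had no KO peak and 1 peak in each WT library. These were 1452 and 992 bp wide and formed a region over the higher-coordinate end (106919807 to 106921258). The covered length was 0 bp in KO and 1222 ± 325 bp in WT (SD, n = 2). Of all reproducible regions 9.62% were at least as wide, against 18.6% for the Smurf1 region.

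Bambi (gene ID 68010; chromosome 18, 3507011 to 3516404) is the shortest member, with a body of 9.39 kb. Neither KO library had a peak there and each WT library had 1, of 1202 and 794 bp. The covered length was 0 bp in KO and 998 ± 288 bp in WT (SD, n = 2). The region (3507189 to 3508390) began 178 bp inside the lower-coordinate end. Bambi and Ldlrad4 were the members whose widest region lay just inside the gene rather than over an end. In the other 5 members it spanned an end, a count that was not compared with other genes.

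**Figure D4:**
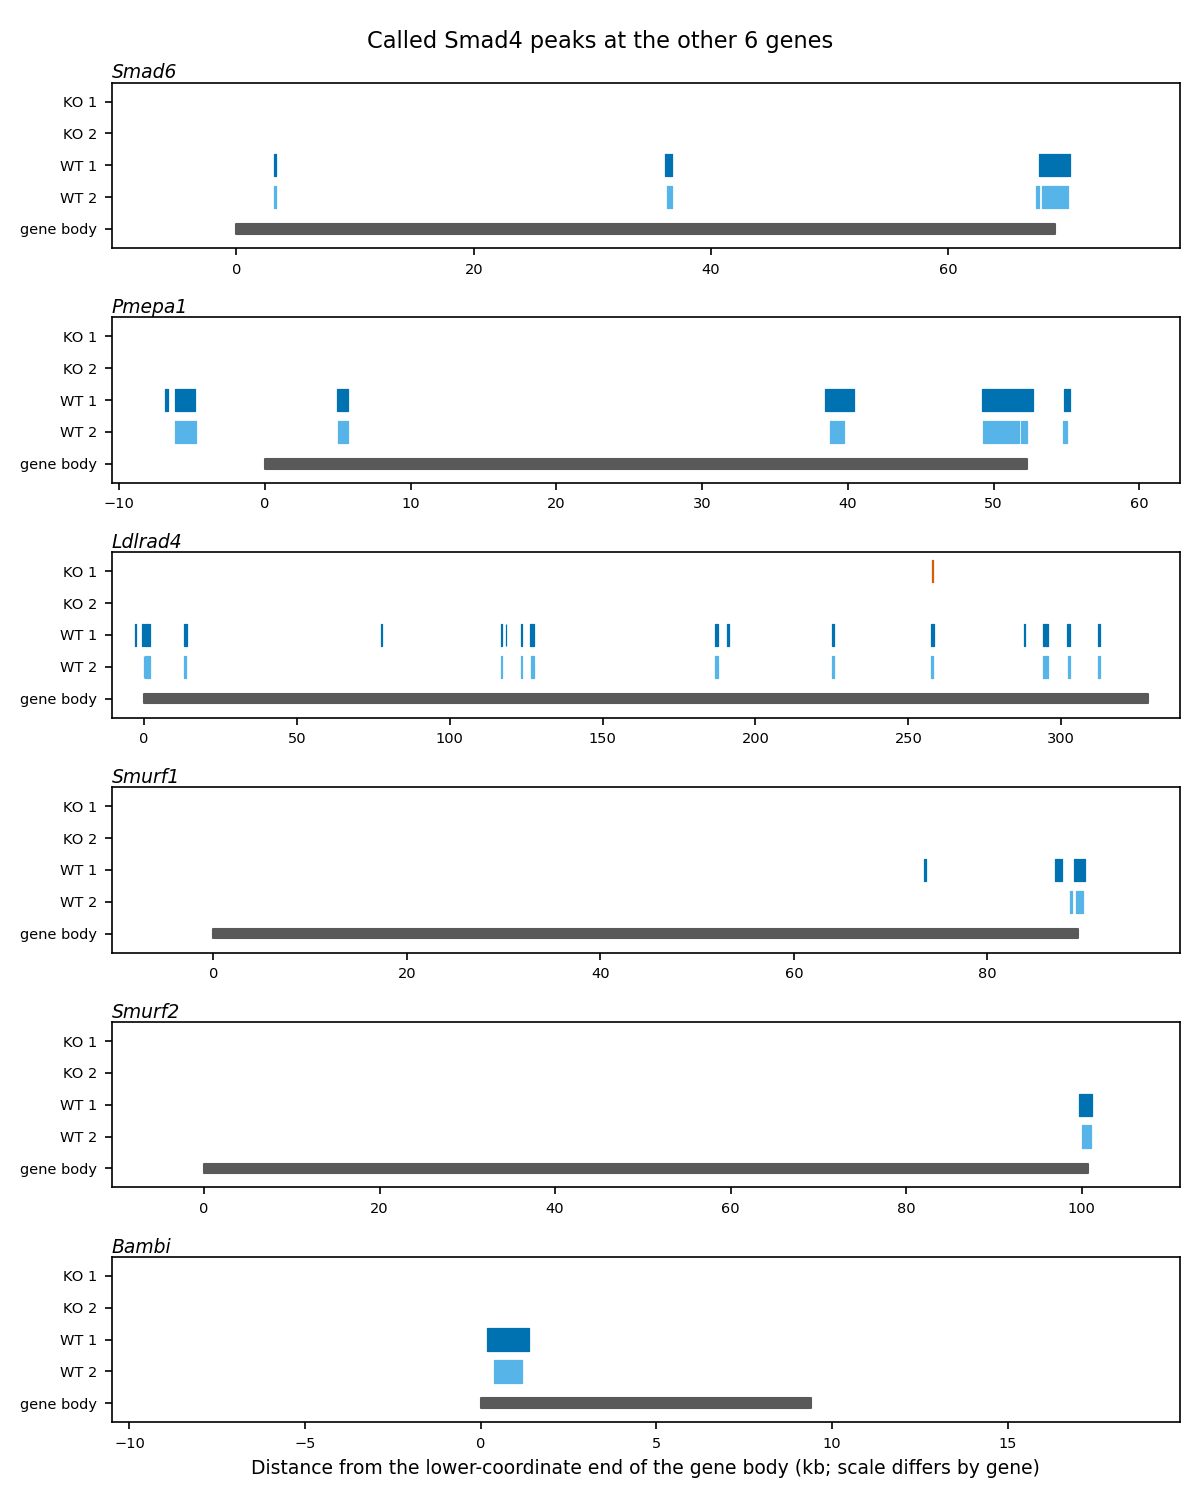
Called peaks of each library along the territories of Smad6, Pmepa1, Ldlrad4, Smurf1, Smurf2 and Bambi, in kb from the lower-coordinate end of each gene body (scale differs by gene), with KO rows above WT rows and the gene body in grey. The KO rows are empty except for a peak of 254 bp in KO 1 inside Ldlrad4, and the WT peaks of Smurf2 and Bambi lie at a single place each.

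RefSeq promoter windows on GRCm38.p6, the assembly named mm10, were matched for Smurf1, Smad6 and Smurf2. The 250 bases before each start site are shown because both WT libraries covered the whole of them and neither KO library had a peak there. All 3 genes run on the minus strand, so their start sites lie near the higher-coordinate end. Each start site used here lies slightly inside the RefSeq gene body, so each window overlaps the edge of that body. Capitals mark the SMAD element CAGAC or its reverse complement GTCTG, and the GC-rich SMAD element GGCGCC.
Smurf1 (chr5:144965831-144966080, minus strand): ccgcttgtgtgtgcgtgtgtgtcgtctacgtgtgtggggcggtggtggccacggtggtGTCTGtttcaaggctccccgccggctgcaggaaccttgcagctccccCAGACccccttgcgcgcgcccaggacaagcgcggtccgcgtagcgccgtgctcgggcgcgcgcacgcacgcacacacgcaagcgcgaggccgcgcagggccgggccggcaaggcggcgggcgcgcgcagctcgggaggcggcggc
Smad6 (chr9:64022060-64022309, minus strand): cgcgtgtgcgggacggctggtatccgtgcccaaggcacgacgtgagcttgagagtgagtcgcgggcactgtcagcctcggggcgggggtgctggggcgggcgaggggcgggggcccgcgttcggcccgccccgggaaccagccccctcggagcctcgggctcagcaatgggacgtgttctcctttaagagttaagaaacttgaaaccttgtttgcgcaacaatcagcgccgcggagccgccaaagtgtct
Smurf2 (chr11:106920716-106920965, minus strand): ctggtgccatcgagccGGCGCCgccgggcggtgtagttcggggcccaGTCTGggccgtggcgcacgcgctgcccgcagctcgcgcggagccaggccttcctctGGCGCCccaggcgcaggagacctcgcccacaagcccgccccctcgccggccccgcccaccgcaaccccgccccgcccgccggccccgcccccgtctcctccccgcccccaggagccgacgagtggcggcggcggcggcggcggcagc

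Among 21263 such windows of protein-coding genes, 26.5% were met by a WT-only region. At Smad6 the WT peaks were nearly centred on the start site, reaching 1289 and 1128 bp before it and 1342 and 1103 bp past it in WT 1 and WT 2. The Smurf1 peaks lay more to the outside of the gene, with 770 and 526 bp before the start site and 397 and 167 bp past it. At Smurf2 the order was turned, with 543 and 395 bp before and 908 and 596 bp past the start site.

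The Smurf1 window held the SMAD element at positions -192 and -145, counted back from the start site to the first base of each match. In the Smurf2 window it stood once, at position -203, and the GC-rich element stood at -234 and -147. Smad6 held neither in these 250 bases. On both strands, CAGAC was present in 40.9% of all 21263 windows, in 40.5% of those met by a WT-only region and in 41.0% of those met by no reproducible WT region. GGCGCC was present in 12.3% of all windows, in 21.1% of those met by a WT-only region and in 9.04% of those met by none. The windows met by a WT-only region were also richer in G and C, with a median of 63.2% against 52.4% in those met by none, and the part of base composition in these shares was not tested. The 3 members had 74.8% (Smurf1), 66.8% (Smad6) and 82.0% (Smurf2) G and C.

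Further motifs were searched on both strands in the same windows. Smurf2 held the ETS core GGAAG at -155 and the RUNX core TGNGGT at -90, which 65.1% and 38.5% of all windows hold. No match overlapped another. None of the 3 windows held the SMAD palindrome GTCTAGAC (0.183% of all windows), the AP-1 motif TGANTCA (6.13%) or the STAT motif TTCNNNGAA (6.58%). A match is a string of letters and not a measured site.

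The WT libraries matched closely at these genes. Of the 34 member peaks of WT 2, 32 shared bases with a WT 1 peak (94.1%, exact 95% Clopper-Pearson interval 80.3% to 99.3%), and in the other direction 32 of 44 did (72.7%, interval 57.2% to 85.0%). Over the whole lists the shares were 85.8% and 61.5%. Intervals cover counting error only. WT 1 had the wider peaks in 22 of the 30 reproducible regions, at Smurf1, Smurf2 and Bambi among others. WT 2 had them in the remaining 8, among them the widest region of Smad7. In a Smad6 region and a Ldlrad4 region of these 8, the peaks stood at the list minimums of 240 and 242 bp. Over the whole lists, peaks shared between the WT libraries had a median width of 588 bp in WT 1 and 492 bp in WT 2. In the 26 regions with a single peak of each WT library, the peak centres were a median of 26 bp apart, and in 21 they lay within 100 bp. The member regions had a median width of 1024 bp, against 655 bp over all 16501 reproducible regions, and 10 of the 30 were among the widest 10% by summed peak width.

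Peaks without a partner were mostly narrow. The 12 of WT 1 had a median width of 240 bp, the minimum of the list, and the widest, 772 bp, lay inside Smad7. The 2 of WT 2 were 756 bp wide at Smad7 and 242 bp wide at Smurf1. At Smad7 the 756 bp peak of WT 2 (75390518 to 75391273) was separated by 3 bp from a peak of 422 bp in WT 1, so that adjoining calls there fell just short of a shared region.

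**Figure D5:**
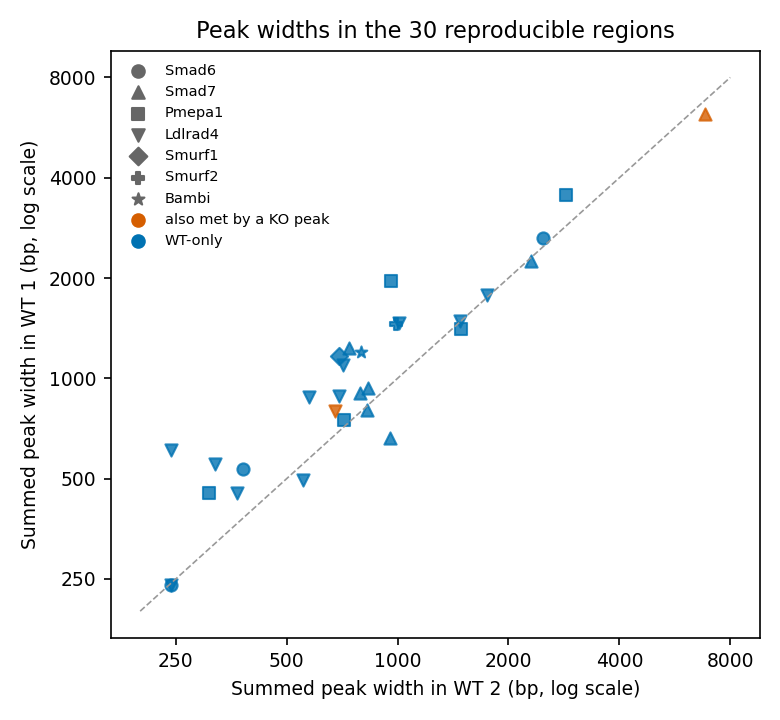
Summed peak width of WT 1 (vertical axis) against WT 2 (horizontal axis) in each of the 30 reproducible regions, in bp on log scales, with a marker for each gene and orange for regions also met by a KO peak. The Smad7 region with 6234 and 6834 bp lies at the upper right, 22 regions lie above the dashed line of equal width, and a Smad6 region and a Ldlrad4 region lie at the minimum widths of 240 and 242 bp.

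The genes closest to each member in covered length were sought by the distance in log10(covered bp + 1) over the 4 libraries. For Smad7 this was Acoxl, at a distance of 0.215, with 582 and 766 bp covered in KO, against 17374 and 13462 bp in WT. Ldlrad4 was most like Ankrd44 (distance 0.0575), which had 254 bp covered in KO 1 and none in KO 2, against 11316 and 7824 bp in WT. Pmepa1 came nearest to Cflar (0.0170), Smad6 to Hnrnpu (0.00433), Smurf1 to Zfp553 (0.00675), Smurf2 to Fbxo6 (0.00356) and Bambi to Coro6 (0.00230). For these 5 members and their nearest genes the KO libraries covered nothing. The distance for Smad7 was the largest of the group. Only 0.615% of all protein-coding genes had peaks in both KO libraries, so fewer genes could lie near it by this measure.

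In the rest of the pathway, 29 of 43 listed genes held a WT-only region, against 44.3% of all protein-coding genes. A KO peak lay at 4 of the 43, against 2.42% of all protein-coding genes. These lists were not matched for territory length, and their counts were not tested. All 4 SMAD co-repressor genes held a WT-only region, and Skil also had 1 peak in each KO library. The widest WT-only regions of that list lay at Tgif1, with summed peak widths of 4872 and 4466 bp in WT 1 and WT 2, at Tgif2 with 2422 and 2158 bp and at Skil with 1596 and 916 bp. All 6 signal-carrying SMAD genes held a WT-only region, led by Smad3 with 1416 and 1668 bp, Smad1 with 1066 and 1184 bp and Smad5 with 1398 and 766 bp. Smad3 had 1 peak in each KO library and Smad4 had 1 in KO 1. Of the 14 receptor genes 11 held a WT-only region and none had a KO peak. Tgfbr2 led them with 2146 and 2222 bp, before Bmpr2 with 1832 and 1854 bp and Tgfbr3 with 1526 and 1072 bp.

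Among 11 other enzymes and adaptors of the pathway, 8 held a WT-only region. The widest lay at Trim33 with 1240 and 1552 bp, Ppm1a with 1036 and 930 bp and Usp9x with 864 and 948 bp. Fkbp1a, which binds the type I receptor, had 1 peak in KO 1. None of the 8 genes for extracellular antagonists, such as Nog and Fst, had a peak in any of the 4 libraries. By number of WT-only regions per 100 kb of territory, the 7 feedback genes had a median of 3.37, the co-repressor genes 8.63, the signal-carrying SMAD genes 1.95 and the receptor genes 1.35. At 12.4 per 100 kb, Smad7 lay above Ski (11.3) and Skil (10.4) and below the B cell gene Cd79a (20.5). The median was 12.4 over the 8 T cell genes and 0 over all protein-coding genes.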

How the data were processed

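Smad4 ChIP-seq was measured in 2 KO and 2 WT libraries; 4 input samples were not analysed here. The authors deposited, as other values, a list of peak start and end positions per ChIP sample, without score. Trim Galore, Bowtie, HOMER 4.8.3 and build mm10 are named, without roles, per the submitters' processing notes. The sources used here give neither calling thresholds nor depth nor any use of the inputs.

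Starts were turned to 1-based. Gene bodies came from RefSeq on GRCm38.p6, the assembly named mm10; those with a start under 3 Mb, unless on Y, carry scaffold coordinates and were left out. Peaks meeting by at least 1 bp were joined. Overlap code was tested on simulated peaks. The members, gene lists and rules were chosen with earlier results of these data known. Named genes were all members, their nearest gene by covered length, and per pathway list up to 3 genes by widest WT-only region and every gene with a KO peak. Cd79a, Pax5, Fcgr1, Klrb1c, Cd4, Cd3d, Cd3e, Cd3g, Cd8a, Ski, Nog and Fst were named after their values were seen. Promoter windows of Smad7, Pmepa1, Ldlrad4 and Bambi, and motifs within peaks, were not analysed here. Alternatives were other territories, overlaps, widths, left-out libraries and pairing by number. The labels do not say that equal numbers pair libraries. Python 3.11.15, numpy 2.4.6, pandas 2.3.3, SciPy 1.17.1 and matplotlib 3.10.9 were used.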

Additional observations from a re-analysis of the deposited data

How the results depend on the processing

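All 7 genes kept a WT-only region with the gene body alone, flanks of 50 kb, 50% overlap, centres within 100 bp, no KO peak within 1 kb, the wider peaks of each list, each library left out and each replicate number taken alone. Within 1 kb of a gene end, all except Smad7 did (6 genes), with 7 WT-only regions, 1 gene with a KO peak and 94.4% of WT peaks shared between the WT lists. That share was 82.1% in the main setting, 66.7% with 50% overlap and 59.0% with centres within 100 bp. Elsewhere the territories held 22 to 42 WT-only regions (29 without KO 1, 42 without WT 2). The numbers per gene moved as well. Pmepa1 had 3 with the gene body alone and 2 with centres within 100 bp, and Smad6 had 1 with the wider peaks. With flanks of 50 kb, Smad7 had 14 and Smurf2 had 4. The number of genes with a KO peak was 1 to 2 over left-out libraries, and 1 with the wider peaks, since the Ldlrad4 peak of KO 1 stands at the minimum width and drops out without that library. With the replicate block it was 2 for number 1 and 1 for number 2, and the paired exact permutation test could not go below p = 0.5. Between libraries of equal number, deviations correlated at -0.0169 over 500 genes with peaks in both genotypes. Only 34.6% of KO 1 peaks and 46.2% of KO 2 peaks met the other KO list. This value therefore cannot decide whether the numbers pair libraries. The motif matches numbered 7 with or without overlapping copies and 5 when counted once per window. Unknown depth limits what absent KO peaks show.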

Other observations

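Neighbouring genes shared some of the regions. Of 11 other annotated genes whose bodies met the 7 territories, 2 carried a reproducible region of a member: Gm20544, a lncRNA gene beside Smad7, carried 2, and Zbp1 beside Pmepa1 carried 1. The lncRNA gene Gm41776 (chromosome 18, 75395773 to 75400461), which overlaps the higher-coordinate end of Smad7, and Fam210a, which overlaps that of Ldlrad4, carried none.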
